A study of Mus musculus with 5 samples.

Results

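The type I interferon response of mouse LSK cells was examined through 9 genes, its factors Stat2, Irf7 and Irf9 and its classical targets Isg15, Ifit1, Ifit3, Rtp4, Oasl2 and Bst2. They were chosen by name from 24399 genes, with earlier results of these data known. The most counted transcript was kept for each gene, and all 9 passed the filter on low counts. LSK cells, which lack lineage markers and carry Sca1 and cKit, are the marrow fraction in which stem cells and early multipotent progenitors of blood are found. They were sorted from bone marrow of C57BL/6 mice aged 12 months, and mRNA was sequenced. The study asks how a germ line knockout of Aid changes the transcriptome of these cells. The titles name 3 libraries KO and 2 WT. For the KO titles the field for genotype reads Aid+/-, and for the WT titles wild type, so libraries titled KO are called KO-labelled here. All titles share the prefix AIDTET, which the labels do not explain. The labels do not say whether each library came from a separate animal or a pool, so the spread behind each p-value is that among samples and may be technical only.

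The libraries held 36060320, 39423495 and 39691066 counts in KO-labelled libraries 1 to 3, against 29964556 and 38674416 counts in WT libraries 1 and 2. Of the sort markers, Kit stood at 1086 to 1144 CPM in KO-labelled and 1205 to 1227 CPM in WT libraries. Ly6a, which encodes Sca1 and is itself known to respond to interferon, stood at 97.2, 90.4 and 105 CPM in KO-labelled libraries, against 74.9 and 82.0 CPM in WT libraries (log2 fold change 0.31 ± 0.10, adjusted p = 0.175). Across the transcriptome 287 of 14565 tested genes passed the threshold, which is 1.97% of them; 0.790% were higher and 1.18% lower in KO-labelled libraries. Over genes, log2 CPM of KO-labelled library 1 had correlations of 0.9525 to 0.965 with the rest, against 0.9802 between KO-labelled libraries 2 and 3; genes are not independent replicates.

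Type I interferons bind a receptor made of IFNAR1 and IFNAR2, and the kinases TYK2 and JAK1 on its inner side phosphorylate STAT proteins, STAT2 among them. With IRF9 these form the complex ISGF3, which enters the nucleus and binds the interferon-stimulated response element of its target promoters. IRF7, itself a target, amplifies the response by driving interferon genes. In the bone marrow, type I interferon is known to bring dormant haematopoietic stem cells into cycle, and a low level of these targets is present in stem cells without infection.

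The promoter sequences of the genes are shown because the response element is known to lie in such promoters. RefSeq's table for GRCm38.p6 held a window for 8 of the 9 genes. The element's core was searched as GAAA, any 2 bases and GAAA, on both strands in the 250 bases before each start site; matches may overlap each other. Of 32851 such windows, 2.98% held it, against 5 of the 8 genes (Isg15, Bst2, Stat2, Ifit1 and Ifit3) and 12 of 36 other interferon targets (33.3%). Capitals mark the core, which reads TTTC, any 2 bases and TTTC where it lies on the opposite strand. Isg15 (chr4:156200819-156200918, minus strand) held 3 overlapping matches between 78 and 57 bases before the start site. Bst2 (chr8:71537523-71537622, minus strand) held 2 overlapping matches between 130 and 115 bases. Ifit1 (chr19:34640765-34640864, plus strand) held 2 on the opposite strand, and Stat2 (chr10:128270256-128270355, plus strand) held 1. The stretch of Ifit3 is not printed, since it lies inside a longer model of that gene. Those printed are 100 bases long and read 5′ to 3′ along the gene.
Isg15: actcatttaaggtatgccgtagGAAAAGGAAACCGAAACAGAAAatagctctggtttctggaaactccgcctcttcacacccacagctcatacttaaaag
Bst2: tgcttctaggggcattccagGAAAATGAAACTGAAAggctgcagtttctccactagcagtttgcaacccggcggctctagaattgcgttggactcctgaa
Ifit1: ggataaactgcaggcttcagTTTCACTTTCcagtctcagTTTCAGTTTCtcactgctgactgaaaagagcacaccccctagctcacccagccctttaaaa
Stat2: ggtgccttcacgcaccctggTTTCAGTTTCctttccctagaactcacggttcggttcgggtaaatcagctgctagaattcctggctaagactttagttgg

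The windows of Irf7, Irf9 and Oasl2 lacked these letters, which says nothing of other windows or spellings. The gamma-activated site, searched as TTC, any 3 bases and GAA, which reads the same on both strands, was in 7.02% of windows and in 1 of the 8 genes, Bst2, where it overlapped the first core match. Of 370 tested genes with the core in their window, 8 were higher (2.16%) and 7 lower in KO-labelled libraries. Among all tested genes 0.790% were higher and 1.18% lower. The median log2 fold change of those with the core was 0.046, against 0.004 for tested genes without the core.

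Of the 9 genes, Irf7 and Rtp4 rose in KO-labelled libraries and 0 fell, while 0.790% of all tested genes were higher. The other 7 did not pass, and 6 of the 9 had an unadjusted p under 0.05. The share of all tested genes under that unadjusted threshold was not counted, here or for the lists below. In 6 of the 9, every KO-labelled library lay above both WT libraries, as it did in 16.5% of tested genes. The median log2 fold change of the 9 was 0.35, against 0.001 over all tested genes, and 8 of the 9 were above 0 against 50.1% of tested genes. Since the 9 were chosen with earlier results of these data known, these contrasts only describe them. In these bulk samples, more responding cells and more RNA per cell cannot be told apart. Levels are CPM, counts scaled by the TMM-adjusted library total, and log2 fold changes are KO-labelled over WT with the standard error of edgeR's quasi-likelihood fit.

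Among the factors, Irf7 stood at 36.5, 46.2 and 49.9 CPM in KO-labelled libraries 1 to 3, against 29.7 and 25.6 CPM in WT libraries 1 and 2. The groups did not overlap, and KO-labelled library 1 was nearest to the WT libraries. The gene averaged 44.2 ± 6.97 CPM in KO-labelled (SD, n = 3) and 27.6 ± 2.97 CPM in WT libraries (SD, n = 2), a rise of 1.6-fold (log2 fold change 0.68 ± 0.15, adjusted p = 0.0423). Its 2 other transcripts in the table had 98.6% and 96.4% as many counts as the one kept. With transcripts summed, which may count the same reads more than once, the adjusted p was 0.0503.

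Irf9, the DNA-binding part of ISGF3, stood at 124, 132 and 138 CPM in KO-labelled libraries, against 102 and 104 CPM in WT libraries. The groups did not overlap and the spread within each was small. Its log2 fold change of 0.35 ± 0.09 missed the threshold (adjusted p = 0.0823). It passed in 4 of 14 alternatives, at an adjusted p of 0.0237 by DESeq2, 0.0106 by limma, 0.0425 where low counts were not filtered and 0.0082 where KO-labelled library 1 was left out; the range over all 14 was 0.0082 to 0.527.

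Stat2, the partner that carries the activation domain of ISGF3, stood at 73.4, 86.6 and 97.8 CPM in KO-labelled libraries, against 63.4 and 82.2 CPM in WT libraries. The groups overlapped, since WT library 2 lay above KO-labelled library 1. Its log2 fold change was 0.24 ± 0.14 (adjusted p = 0.496), and it ran from 0.07 without WT library 1 to 0.44 without WT library 2. Its gene model overlaps that of Apof, and whether counting used strand is not given in the sources used here.

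**Figure D1:**
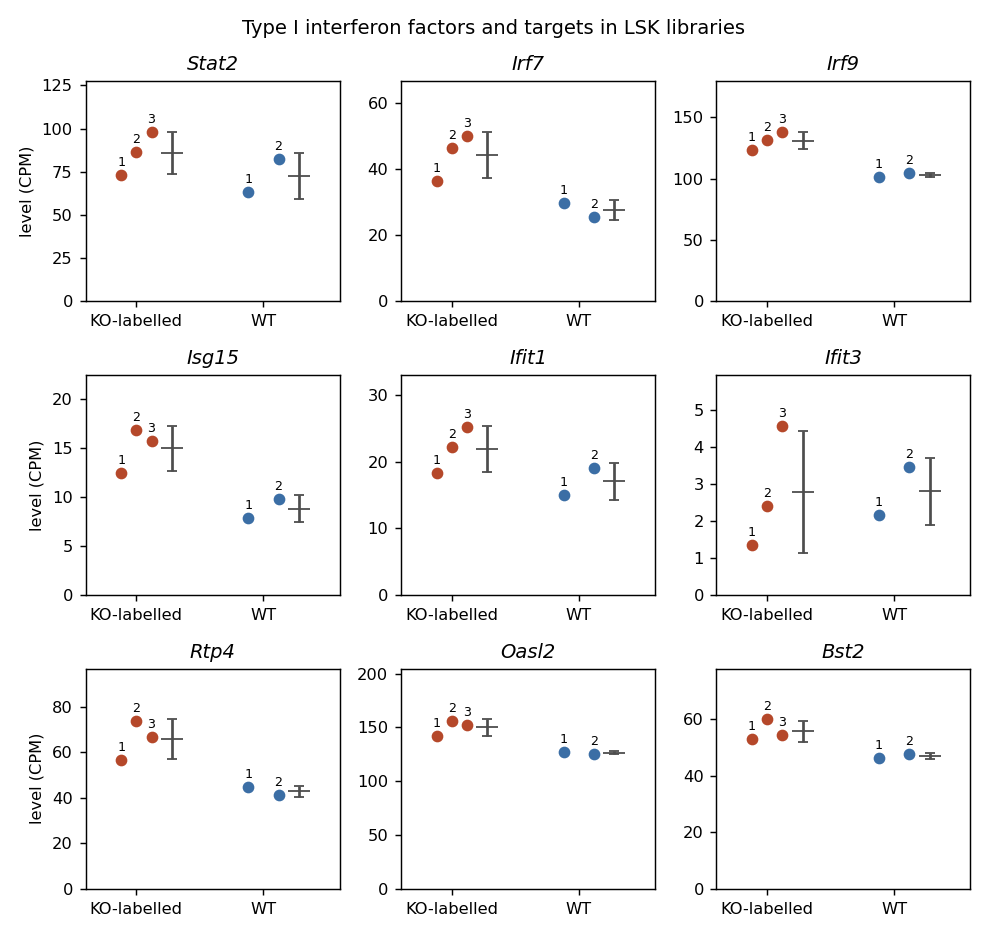
Level of each gene in CPM (vertical axes, from 0) in the 3 KO-labelled and 2 WT libraries; points are libraries with their number, and bars give the mean ± SD. Irf7, Irf9, Isg15, Rtp4, Oasl2 and Bst2 did not overlap between the groups, while Stat2, Ifit1 and Ifit3 did.

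Among the targets, Rtp4, a chaperone of receptors known as interferon-induced, stood at 56.5, 73.9 and 66.7 CPM in KO-labelled libraries 1 to 3, against 44.6 and 41.3 CPM in WT libraries 1 and 2. The lowest KO-labelled library lay well above the higher WT library, by 26.8%. The gene averaged 65.7 ± 8.71 CPM in KO-labelled (SD, n = 3) and 42.9 ± 2.35 CPM in WT libraries (SD, n = 2), a rise of 1.53-fold (log2 fold change 0.61 ± 0.13, adjusted p = 0.028). Its gene model in RefSeq's GRCm38 table overlaps that of Masp1.

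Isg15, a ubiquitin-like protein that is conjugated to other proteins, stood at 12.4, 16.8 and 15.7 CPM in KO-labelled libraries, against 7.84 and 9.85 CPM in WT libraries. It had the highest fold change of the 9 genes and no overlap between groups. It rested on 449, 658 and 622 counts in KO-labelled and 235 and 385 counts in WT libraries, and its gene model overlaps that of Gm46878. Here its log2 fold change of 0.76 ± 0.22 did not pass (adjusted p = 0.116). It passed in 2 of 14 alternatives, by limma at an adjusted p of 0.0302 and, where KO-labelled library 1 was left out, of 0.0204. The adjusted p was 0.246 under the replicate block and 0.321 without KO-labelled library 3.

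Oasl2, of the oligoadenylate synthetase-like family, stood at 142, 156 and 152 CPM in KO-labelled libraries, against 127 and 125 CPM in WT libraries. Bst2, or tetherin, which holds budding virus at the cell surface, stood at 53.0, 59.9 and 54.3 CPM in KO-labelled libraries, against 46.4 and 47.9 CPM in WT libraries. Both separated the groups, but by small steps. The log2 fold change was 0.25 ± 0.09 for Oasl2 (adjusted p = 0.219) and 0.24 ± 0.11 for Bst2 (adjusted p = 0.359), and Oasl2 passed only without KO-labelled library 1 (adjusted p = 0.0411) among the alternatives run.

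Ifit1, which binds viral RNA lacking a host cap, stood at 18.2, 22.2 and 25.2 CPM in KO-labelled libraries, against 15.04 and 19.0 CPM in WT libraries. WT library 2 lay above KO-labelled library 1, so the groups overlapped (log2 fold change 0.36 ± 0.19, adjusted p = 0.425). Its gene model overlaps that of Ifit1bl1. Ifit3, the partner of Ifit1, stood at 1.36, 2.41 and 4.58 CPM in KO-labelled libraries, against 2.17 and 3.45 CPM in WT libraries. It spread more within the KO-labelled group than between the groups, on 49, 94 and 181 counts in KO-labelled and 65 and 135 counts in WT libraries. Its log2 fold change of -0.02 ± 0.51 (adjusted p = 0.997) changed sign with the library left out and by limma. It may share reads with its near copy Ifit3b, which stood at 0.609 to 0.921 CPM in KO-labelled and 0.600 to 0.998 CPM in WT libraries, and how such reads were counted is not known here.

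KO-labelled library 1 was the lowest of its group for all 9 genes, a count not made over all tested genes. Library 2 was the highest for 4 of them and library 3 for 5. On log2 CPM centred on each gene's own mean over the libraries, the 9 genes averaged -0.105, 0.216 and 0.331 in KO-labelled libraries 1 to 3, against -0.301 and -0.142 in WT libraries 1 and 2. On this scale KO-labelled library 1 lay closer to WT library 2 than to the other KO-labelled libraries. Without KO-labelled library 1, Irf7, Irf9, Isg15, Rtp4 and Oasl2 passed, 5 of the 9 genes, while 2.17% of all tested genes were higher. As the lowest of its group for all 9, that library could only lower their KO-labelled means. Without any other single library 0 of the 9 passed. With KO-labelled library 2 or 3 left out, the adjusted p of Irf7 was 0.0879 or 0.201 and that of Rtp4 0.0809 or 0.11. With either WT library left out, it was 0.304 or 0.43 for Irf7 and 0.304 or 0.352 for Rtp4. With 1 WT library left, that sample was assumed to vary like the others.

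**Figure D2:**
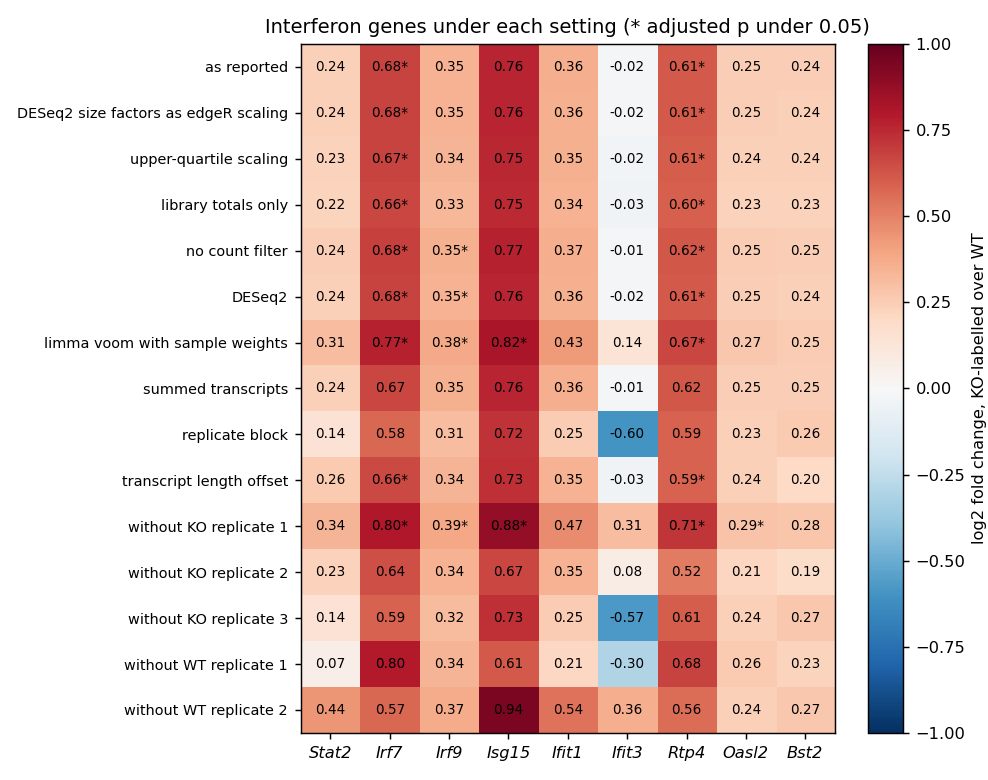
Log2 fold change of each gene (columns; color scale and printed value, KO-labelled over WT) under each processing setting (rows), with an asterisk at an adjusted p under 0.05. Irf7 and Rtp4 stayed between 0.52 and 0.80 in every row but lost the asterisk in 6 of the 14 alternatives each, and Ifit3 changed sign.

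Levels were compared between genes per transcript length, as CPM per kilobase of the kept transcript in GENCODE M21. Bst2 was the most abundant on this scale, at 66.9 to 75.7 in KO-labelled and 58.5 to 60.4 in WT libraries, and Ifit3 the least, at 0.777 to 2.63 in KO-labelled and 1.24 to 1.98 in WT libraries. In WT libraries the order ran Bst2, Oasl2, Irf9, Rtp4, Stat2, Irf7, Isg15, Ifit1 and Ifit3. Of the neighbours in this order only Stat2 (14.4 to 18.7) and Irf7 (13.3 to 15.5) overlapped in WT libraries. In KO-labelled libraries the ranges of Oasl2, Irf9 and Rtp4 overlapped, as did those of Stat2, Irf7 and Isg15. Irf7 stood at 19.0 to 26.1 in KO-labelled libraries and Stat2 at 16.7 to 22.3. The means of Irf7 and Stat2 were 23.1 and 19.6 in KO-labelled libraries, and 14.4 and 16.6 in WT libraries, so their order by mean differed between the groups. That change of order was not tested.

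**Figure D3:**
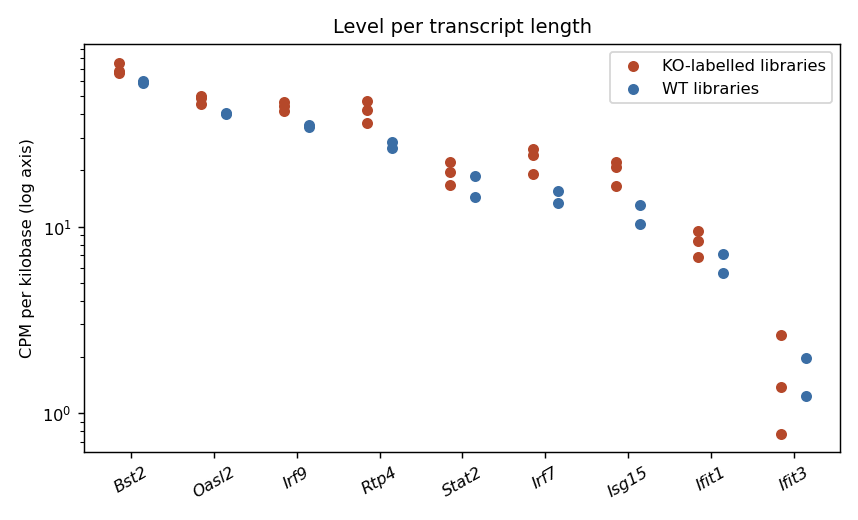
Level of each gene in CPM per kilobase of transcript (vertical log axis) in the 3 KO-labelled (left) and 2 WT (right) libraries; each point is a library, and genes run by their WT mean. Bst2 is highest, at 66.9 to 75.7 in KO-labelled and 58.5 to 60.4 in WT libraries, and Ifit3 lowest.

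Of 7 genes for interferon receptors and their kinases, 0 passed by edgeR in either direction. They were Ifnar1, Ifnar2, Jak1 and Tyk2 of the type I pathway, and Ifngr1, Ifngr2 and Jak2, which serve the interferon gamma receptor. Of the 7, 1 was lower at an unadjusted p under 0.05, the interferon gamma receptor chain Ifngr2. In 4 of the 7 every KO-labelled library lay below both WT libraries, a share not counted over all tested genes. These 4 included Ifngr1 and Ifngr2. The log2 fold change was above 0 in 1 of the 7, against 50.1% of tested genes. The receptor chain Ifnar1 stood at 125, 118 and 117 CPM in KO-labelled libraries, against 128 and 126 CPM in WT libraries (log2 fold change -0.08 ± 0.09, adjusted p = 0.759). Ifnar2 stood at 127, 146 and 134 CPM in KO-labelled libraries, against 149 and 148 CPM in WT libraries (-0.13 ± 0.09, adjusted p = 0.574). The kinases Jak1 (0.001 ± 0.073) and Jak2 (-0.009 ± 0.087) lay near 0, with signs that turned under other scalings or fits. Tyk2 was at -0.02 ± 0.10 (adjusted p = 0.955). Transcripts of interferons themselves were at or near 0: of 20 interferon genes, 18 had 0 counts in every library. Ifnz had 4 counts in KO-labelled library 2 and Ifnab had 9 counts in WT library 2, while a floor of 3 counts is worth 0.0759 to 0.1 CPM in these libraries.

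Among 15 other IRF and STAT genes, 2 rose, Irf4 among them, and 0 fell. Irf4, a factor of lymphocytes and dendritic cells, stood at 7.34, 8.65 and 13.7 CPM in KO-labelled libraries, against 3.001 and 3.25 CPM in WT libraries (1.66 ± 0.32, adjusted p = 0.0174). Its call was lost with the replicate block (adjusted p = 0.0718), without KO-labelled library 3 (adjusted p = 0.107) and without either WT library. Irf3, which acts below the nucleic acid sensors, and Irf8, a factor of dendritic and myeloid cells, did not pass (0.28 ± 0.12 and 0.27 ± 0.12, adjusted p = 0.2997 and 0.355).

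Of 50 other type I interferon targets, 1 rose and 0 fell, while 0.790% of all tested genes were higher and 1.18% lower. This list was also chosen with earlier results of these data known. At an unadjusted p under 0.05, 12 of the 50 were higher and 1 lower, shares not counted over all tested genes. The median log2 fold change of the 50 was 0.15, against 0.001 over all tested genes. In 18 of the 50 every KO-labelled library lay above both WT libraries, as it did in 16.5% of tested genes. The log2 fold change was above 0 in 40 of the 50, against 50.1% of tested genes. The values ran from -0.41 for Ddx60, a helicase, to 0.87 for Usp18, the protease that removes Isg15 and dampens the receptor. Usp18 stood at 14.8, 23.6 and 21.4 CPM in KO-labelled libraries, against 10.5 and 11.4 CPM in WT libraries (adjusted p = 0.0664). Samd9l (0.47 ± 0.12, adjusted p = 0.0638) and Cmpk2 (0.46 ± 0.12, adjusted p = 0.0705) did not pass either, though each passed, as did Usp18, by DESeq2. Without KO-labelled library 1, 10 of the 50 passed, Oas3 among them, all higher, while 2.17% of all tested genes were higher. The most abundant targets of the list had values near 0, with Ly6e at 1365 to 1453 CPM in KO-labelled and 1386 to 1420 CPM in WT libraries (log2 fold change 0.01 ± 0.07, which turned sign under other scalings) and Lgals3bp at 432 to 468 CPM in KO-labelled and 456 to 499.9 CPM in WT libraries (-0.10 ± 0.08, adjusted p = 0.659). Ifit2, of the family of Ifit1 and Ifit3, stood at 57.3 to 70.7 CPM in KO-labelled and 58.5 to 66.7 CPM in WT libraries. Ddx60, Usp18, Samd9l, Cmpk2, Oas3, Ifit2, Ifit3b, Ifnar1, Ifnar2, Irf3 and Irf8, and below Pacsin1, Cox6a2, Epor and Alas2, were named after their values were seen. So were Tyk2 and Ifngr1.

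**Figure D4:**
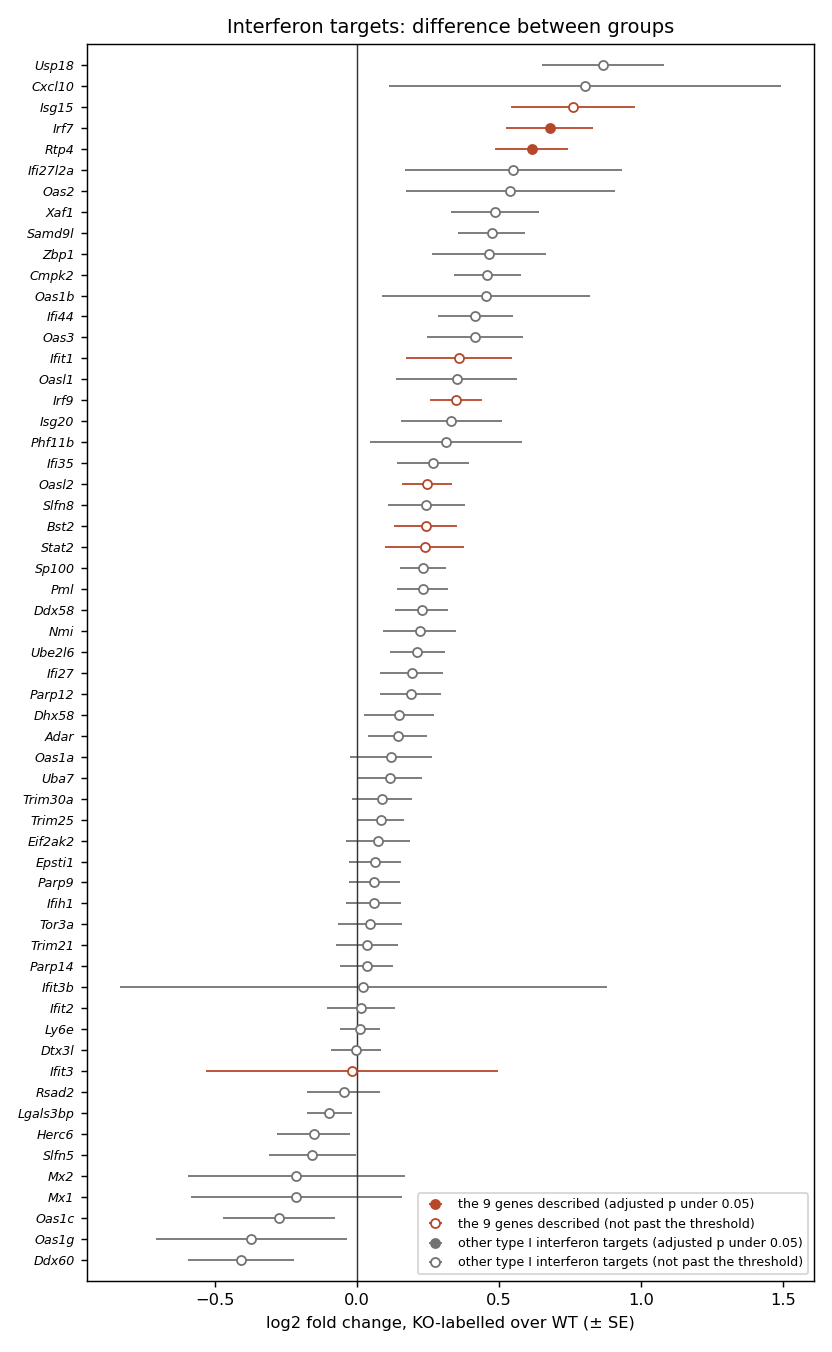
Log2 fold change ± SE (horizontal axis, KO-labelled over WT) of the 9 genes (red) and 49 of the 50 other type I interferon targets (grey), sorted by value; filled points had an adjusted p under 0.05. Irf7 and Rtp4 are filled, and values run from -0.41 for Ddx60 to 0.87 for Usp18.

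Of 15 sensor and adaptor genes 0 passed, with 1 higher and 1 lower at an unadjusted p under 0.05. The log2 fold change was 0.23 ± 0.09 for Ddx58, the RNA sensor RIG-I (adjusted p = 0.298), and -0.04 ± 0.08 for Sting1, the adaptor of DNA sensing (adjusted p = 0.883). Of 12 negative regulators 1 fell and 0 rose. It was Socs3, which inhibits cytokine receptors of the STAT3 class, at 9.16, 7.47 and 7.16 CPM in KO-labelled libraries, against 27.9 and 37.5 CPM in WT libraries (-2.05 ± 0.19, adjusted p = 1.92e-04). The phosphatases Ptpn6 (0.09 ± 0.08, adjusted p = 0.687) and Ptpn11 (0.19 ± 0.09, adjusted p = 0.367) did not pass.

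The genes most like the 9 were sought by the distance between a gene's centred log2 CPM over the 5 libraries and the mean of the 9. Among 10301 genes with enough spread, the nearest were Dffb, Pik3r6, Agap3, Parp6 and 2310057M21Rik, at distances of 0.081 to 0.113. Of the 9 genes themselves, Ifit1 was nearest to their mean at 0.136, followed by Stat2 at 0.216, and Ifit3 farthest at 1.131. The 5 nearest had log2 fold changes of 0.30 to 0.37, and 0 of them passed by edgeR, with 1 at an unadjusted p under 0.05 (Parp6). By the alternatives, Agap3 passed in 1 of 14 and the other 4 in 0.

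Some markers of other cell types differed between the groups, while others did not. Plasmacytoid dendritic cells are known to express Irf7 and Bst2 strongly. The 6 genes listed as their markers summed to 24.3 to 33.0 CPM in KO-labelled and 10.7 to 13.1 CPM in WT libraries. Whether these transcripts came from such cells was not tested. Of the 6, 2 rose. Ly6d rose to 11.4 ± 2.24 CPM in KO-labelled libraries, against 2.99 ± 0.722 CPM in WT libraries (SD; adjusted p = 0.00443), a call lost if either WT library was left out. Ccr9 rose to 8.41 ± 2.41 CPM in KO-labelled libraries, against 3.26 ± 0.129 CPM in WT libraries (SD; adjusted p = 0.0433). The call for Ccr9 was lost in 5 of 14 alternatives, at an adjusted p of 0.0998 under the replicate block, 0.138 or 0.113 with KO-labelled library 2 or 3 left out, and 0.448 or 0.335 with WT library 1 or 2 left out. Siglech, named after its values were seen, stood at 5.79, 4.02 and 2.76 CPM in KO-labelled libraries, against 1.37 and 1.36 CPM in WT libraries (adjusted p = 0.101, but 0.0312 by DESeq2 and 0.0429 where low counts were not filtered). Within the KO-labelled group the summed level was lowest in library 1, at 24.3 CPM, as were Ly6d and Ccr9, while Siglech was highest there. Pacsin1 (-0.08 ± 0.64) and Cox6a2 (-0.12 ± 0.48), of the same list, overlapped between the groups, and 4 of the 6 had a log2 fold change above 0.

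The 6 erythroid markers summed to 46.0 to 46.6 CPM in KO-labelled and 26.5 to 27.5 CPM in WT libraries, with Klf1 higher (adjusted p = 0.0169). That call was lost with KO-labelled library 3 (adjusted p = 0.0774), WT library 1 (0.284) or WT library 2 (0.0774) left out. The log2 fold change of Hbb-bs was 0.92 ± 0.32 (adjusted p = 0.1996), and was 1.66 or 0.43 with WT library 1 or 2 left out; by limma it passed (adjusted p = 0.0337). Epor (-0.15 ± 0.23) and Alas2 (0.23 ± 0.63), of the same list, overlapped between the groups. The 6 neutrophil markers summed to 103 to 142 CPM in KO-labelled and 187 to 234 CPM in WT libraries, with S100a8 and S100a9 lower (adjusted p = 0.00959 and 0.0173). With KO-labelled library 3, WT library 1 or WT library 2 left out, the adjusted p was 0.0535, 0.273 or 0.163 for S100a8 and 0.0879, 0.457 or 0.0774 for S100a9. The log2 fold change of S100a9 was -0.75 ± 0.14, and -0.49 with WT library 1 left out. The 6 monocyte markers summed to 317 to 372 CPM in KO-labelled and 408 to 450 CPM in WT libraries, and 0 passed by edgeR, with Csf1r lower at an unadjusted p under 0.05; the most abundant were Lyz2 (-0.22 ± 0.10) and Itgam (-0.65 ± 0.32). Itgam passed under the replicate block (-1.03, adjusted p = 0.0053) and with KO-labelled library 3 left out (-1.01, adjusted p = 0.0114), and was at -0.42 with KO-labelled library 1 left out. Lyz2 passed with KO-labelled library 1 left out (-0.31, adjusted p = 0.0278), and was at -0.12 with WT library 1 left out.

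The 6 B cell markers summed to 50.2 to 57.2 CPM in KO-labelled and 43.9 to 53.2 CPM in WT libraries, mostly Cd79b, and 0 of the 5 tested passed, also at an unadjusted p under 0.05 (Cd79a 0.12 ± 0.40, and 0.74 or -0.31 with WT library 1 or 2 left out). The 6 T and NK cell markers summed to 118 to 134 CPM in KO-labelled and 143 to 145 CPM in WT libraries, mostly Nkg7 (0.01 ± 0.09), with Klrb1c lower (-1.02 ± 0.17, adjusted p = 0.00826; 0.217 or 0.241 with WT library 1 or 2 left out). Of these 6, 4 had a log2 fold change above 0. The T cell genes Cd3g (1.48 ± 0.81), Cd3e (0.72 ± 0.75) and Cd3d (0.12 ± 1.09), named after their values were seen, did not pass. They reached at most 3.24 CPM in any library. Ncr1 was at -2.14 ± 1.37 and did not pass. None of the markers of other cell types was at 0 in all libraries, while Pax5 (B cell) and Ncr1 (NK cell) were at 0 in KO-labelled library 3 and Cd300c (plasmacytoid dendritic cell) in WT library 1. Of the 8 LSK markers 0 passed, with 1 higher and 1 lower at an unadjusted p under 0.05, and Cd34 stood at 1182 to 1387 CPM in KO-labelled and 1228 to 1378 CPM in WT libraries. The part of these cell types in the levels of the 9 interferon genes was not tested.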

How the data were processed

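Per the labels' protocols, mRNA of FACS-sorted LSK cells was sequenced after a stranded preparation. The deposited table holds raw read counts for 33862 RefSeq transcripts, and the submitters' processing notes name STAR, Subread 1.4.5-p1, featureCounts and mm9 (NCBIM37); no source used here states the counting settings, strand use included. Names came from RefSeq's GRCm38.p6 table for 33485 transcripts and from GENCODE for 188; 189 matched neither and were kept under their accession. The transcript with the most counts was kept per gene, giving 24399 genes. Total counts are given in the results.

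After filterByExpr and TMM scaling, genes were tested by edgeR 4.0.16 (R 4.3.3) with the robust quasi-likelihood test of KO against WT, two-sided, with Benjamini-Hochberg adjustment over all tested genes and a threshold of 0.05. The test was checked on simulated counts of the same design. The common biological coefficient of variation was 18.9%. The members and lists were chosen with earlier results of these data known. Named genes were the 9 members, from each list up to 4 called genes by lowest p (with fewer than 2 calls, its 2 genes of highest mean CPM), the 5 genes nearest in pattern, Kit and Ly6a; some genes that this rule names are not reported here. Others are marked in the results or are the single call or count of a list, chosen after their values were seen. Alternatives were other scalings, no filter, DESeq2 1.42.0, limma 3.58.1 (voom with sample weights), summed transcripts, a length offset, a replicate block, a looser threshold and each library left out.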

Additional observations from a re-analysis of the deposited data

How the results depend on the processing

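The log2 fold change of 8 of the 9 genes kept its sign in all 14 alternatives; Ifit3 turned to 0.14 with limma and sample weights and ranged from -0.57 to 0.36 with 1 library left out. With 1 library left out, 6 to 675 genes changed, 2 to 312 were higher and 4 to 363 lower, 0 to 5 of the 9 passed, and 0 to 10 of the other targets did. The lowest count, 6, came without WT library 1 and the highest, 675, without KO-labelled library 1; 18 changed without WT library 2, 135 without KO-labelled library 3 and 263 without KO-labelled library 2. A lone WT sample was assumed to vary like the others. Changed, higher and lower genes numbered 455, 200 and 255 with no count filter, 524, 240 and 284 by DESeq2, 624, 247 and 377 by limma, and 454, 192 and 262 at an adjusted p under 0.10. Under a replicate block they were 160, 54 and 106, and 0 of the 9 passed (Irf7 adjusted p = 0.169, Rtp4 0.0848). Over genes, the deviations of libraries with the same number from their group means had correlations of 0.043 and 0.017. With 2 WT libraries, each deviates as the reverse of the other, so these values cannot show what the numbers share. The labels do not say it either. Of the 9, 4 passed with limma and sample weights and 0 with summed transcripts (Rtp4 adjusted p = 0.0634). Of the other targets, 4 passed with no filter, DESeq2 or the looser threshold, 5 with limma and sample weights and 2 with the length offset. The cause was not tested.

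Signs of genes near 0 turned. Ly6e was at -0.00277 with library totals only and -0.00348 with the length offset, Jak1 at -4.88e-05, -0.00395, -0.0125, -9.29e-05 and -0.017 with DESeq2 size factors, upper-quartile scaling, library totals, DESeq2 and the replicate block, and Jak2 at 0.00203 and 0.0334 with limma and the length offset. Nkg7 was at -0.0028, -0.015 and -0.035 with library totals, limma and the length offset, Ifit2 at -0.026 with limma and Ifit3b at -0.049 with the block. With 1 library left out the ranges were -0.00916 to 0.034 (Ly6e), -0.016 to 0.026 (Jak1), -0.082 to 0.074 (Jak2), -0.018 to 0.068 (Nkg7), -0.077 to 0.117 (Ifit2), -0.286 to 0.439 (Ifit3b), -0.086 to 0.00884 (Sting1), -0.122 to 0.049 (Cd34) and -0.311 to 0.740 (Cd79a). The scalings moved the median of all genes by at most 0.014. Ifit3 had 49 to 181 counts per library, the fewest of the 9 genes.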
